A study of Mus musculus with 33 samples.

Results

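The question addressed was which genes of the posterior hypothalamus (PH) differed 14 days after removal of both ovaries (ovariectomy, OVX). The PH libraries of mice 14 days after OVX (n = 6) were compared with those of intact mice (n = 4), 10 of the 33 libraries of the series. The other 6 PH libraries, from mice 4 months after OVX, entered the fit to estimate the spread. All mice were WT C57BL/6 females; those of the OVX group were operated on as adults of 3 to 4 months under isoflurane, with Buprenex SR and meloxicam on the day of surgery. The control libraries are titled sham, whereas another label says intact, and the study's methods describe females that were euthanized in diestrus before any OVX. Surgery, anesthesia and analgesia therefore cannot be told apart from the loss of the ovaries. The age of the intact mice at collection was not given in the sources used here. Poly(A) RNA of the dissected, flash-frozen PH was sequenced, and the labels place the libraries in 2 batches, each with 2 intact libraries and 3 libraries at 14 days. No source used here says that each library came from a separate mouse, so *P* values measure only the spread between these libraries.

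The PH holds the arcuate nucleus, whose KNDy neurons make kisspeptin, neurokinin B and dynorphin and drive the pulsatile release of GnRH, the hormone that acts on the pituitary to release LH. Estradiol from the ovary restrains these neurons through its receptor ERα, and its loss is known to raise their output. In the POA, kisspeptin neurons respond to estradiol in the opposite way. The arcuate nucleus also holds neurons that lower food intake (*Pomc*) or raise it (*Agrp* and *Npy*).

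The values are a normalized signal on a linear scale, in which genes without measurable expression lie near 22.1. Genes were kept for testing if 4 or more of the 16 PH libraries lay at 2 times this floor or above, which left 21999 genes, 16361 of them protein-coding. Log2 values were compared with limma, with the first surrogate variable (SV1, a per-library score of shared unwanted variation) as covariate. No gene passed an adjusted *P* of 0.05 (0%), and the smallest adjusted *P* was 0.287. The study, with DESeq2 and SV1, did report protein-coding genes at an adjusted *P* under 0.05 in this comparison. The absence here therefore holds for this limma fit of the normalized signal and not for the study's fit. With an unadjusted *P* under 0.05 in limma, 668 genes (3.04%) were found, 345 higher (1.57%) and 323 lower (1.47%) after OVX. Among them were 472 protein-coding genes (2.88%), 269 higher (1.64%) and 203 lower (1.24%). If no gene differed, a share of about 0.05 would pass this threshold on average. The shares found were lower, so these counts do not show that genes changed. Counts of list members at this threshold below are to be read beside the 1.57% higher and 1.47% lower. Higher and lower below are descriptions, since no gene of this comparison passed the adjusted threshold. With an unadjusted *P* or a log2 fold change, they give the sign of the value fitted with SV1. For groups that do not overlap and for differences within a batch, they describe measured values. The 2 can differ. *Tspo* had a mean of 105 in intact libraries and 102 after OVX, but a log2 fold change of 0.079.

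The libraries held the markers of brain tissue. Every listed marker of neurons (12), astrocytes (14), oligodendrocytes (12), microglia (22) and endothelial cells (18) reached 2 times the floor in each of the 10 libraries, as did 28 of 28 genes of the arcuate feeding and growth hormone axis. Replicate 5 at 14 days stood apart. In it, 33.4% of the summed signal came from mitochondrial genes, against 6.87% to 15.1% in the 15 other PH libraries, and its SV1 was 0.785 against -0.311 to 0.194. The covariate thus largely follows this library, and values without replicate 5 below are not a separate check of the fit with SV1. Replicates correlated at 0.983 to 0.993 among intact and at 0.955 to 0.992 among 14-day libraries. Tissue next to the PH was present in unequal amounts in both groups. *Ttr*, which marks choroid plexus, lay between 759 and 53502 in intact libraries and between 490 and 37150 after OVX, and *Pmch*, made by neurons of the lateral hypothalamus, between 812 and 4129 and between 789 and 4957. The pituitary hormone gene *Prl* reached 2919 in intact replicate 4. The part of these differences in the results was not tested.

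The gene with the smallest *P* was *Gm28040*, a gene model that overlaps *Kiss1*, which encodes kisspeptin. The symbol stands on 2 entries of the deposited table, and GENCODE M39 also holds 2 genes of this name, both on the plus strand of chromosome 1 in GRCm39. The first, ENSMUSG00000115958, spans 133237565 to 133257465 and has 11 transcripts. The second, ENSMUSG00000098306, spans 133237565 to 133257639 and has 2 transcripts. The table pairs no identifier with either entry, so which entry is which gene cannot be said. The start of *Kiss1* in RefSeq, found in GRCm39 by its sequence, lies at position 133254950, which is 2 bases inside a *Gm28040* exon at 133254948 to 133255078. *Kiss1* itself has no gene of that symbol in GENCODE M39.

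All 11 transcripts of ENSMUSG00000115958 share 1 coding sequence, in 2 stretches that both transcripts of the other gene also hold in their exons. These stretches are shown because reads from them fit either entry. The first, chr1:133254988-133255078, opens with the start codon in capitals, and the second, chr1:133257094-133257383, closes with the stop codon in capitals.
Gm28040, first coding stretch: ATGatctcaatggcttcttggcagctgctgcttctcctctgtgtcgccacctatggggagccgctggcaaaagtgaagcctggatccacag
Gm28040, second coding stretch: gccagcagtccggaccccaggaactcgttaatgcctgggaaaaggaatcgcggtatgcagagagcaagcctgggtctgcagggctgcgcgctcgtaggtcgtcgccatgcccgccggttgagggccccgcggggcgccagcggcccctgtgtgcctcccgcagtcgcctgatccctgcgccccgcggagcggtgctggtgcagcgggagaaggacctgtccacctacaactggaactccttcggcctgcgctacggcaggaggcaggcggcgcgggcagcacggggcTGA

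Of the 2821 distinct 31-base words in the transcripts of ENSMUSG00000115958, 916 (32.5%) also occur in the other *Gm28040* gene, and 412 (14.6%) in *Golt1a*, the gene that overlaps the upstream part of the locus. Of the 1465 words of ENSMUSG00000098306, 62.5% occur in the first gene and 51.7% in *Golt1a*. The pseudoaligner can therefore split reads of this locus among entries, and the values of each are uncertain in that respect.

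The second entry of *Gm28040* was at 40.8, 39.3, 38.3 and 37.1 in the 4 intact libraries. After OVX it was at 105, 119, 97.6, 83.3, 65.6 and 168. Every library after OVX was above every intact library, and replicate 5 was the lowest of the 6. Its log2 fold change was 1.53 (SE 0.26, 95% interval 0.99 to 2.08), with an unadjusted *P* of 1.31e-05 and an adjusted *P* of 0.287 in limma. It was 1.42 within batch 1 and 1.36 within batch 2, and 1.54 without replicate 5. Across the alternative fits, the adjusted *P* lay between 0.00978 and 1, and leaving the libraries at 4 months out of the fit gave 0.024 with SV1 and 0.693 without a covariate. Since these values lie near the floor, its size depends on the floor, with 1.86 when 0.5 of the floor was taken off each value and 1.15 when the floor was added to it.

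The same entry was tested for a difference between regions in a fit of all 33 libraries. In the POA, it was at 88.1 to 191 in intact mice and at 45.3 to 79.1 after OVX, so that the groups were apart in the other direction. The change in the PH was higher than that in the POA by 2.75 on the log2 scale (SE 0.30, adjusted *P* = 4e-06 in limma), the only gene of 23014 to pass in that test (0.00435%). In the PH at 4 months, the entry was at 160.5 ± 85.1 (SD, n = 6), against 106 ± 35.3 at 14 days and 38.9 ± 1.56 in intact mice. The difference between both times after OVX was 0.34 on the log2 scale (adjusted *P* = 0.9996 in limma), and 2 other genes passed in that comparison (0.00909%).

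The first *Gm28040* entry and *Kiss1* were too low to be tested. The first entry was between 21.0 and 32.8 in intact libraries, and after OVX it reached 49.4 in replicate 4 and at most 26.4 in the others. *Kiss1* was between 22.1 and 30.9 in intact libraries and between 22.1 and 30.98 after OVX. The groups overlapped in both entries. As *Kiss1* overlaps *Gm28040*, its reads could have been assigned to another entry of this locus, and their assignment was not tested. The low values therefore do not show that *Kiss1* RNA was absent or unchanged.

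Among the other KNDy genes, *Tac2*, which encodes neurokinin B, had the lowest *P*. It was at 902, 600, 1054 and 840 in intact libraries and at 1114, 1543, 1578, 1108, 1085 and 1011 after OVX. In 5 of 6 libraries after OVX it exceeded all intact libraries, replicate 6 being the exception. The log2 fold change was 0.58 (SE 0.16, unadjusted *P* = 0.0018, adjusted *P* = 0.9999 in limma), with 0.92 within batch 1 and 0.18 within batch 2. *Pdyn*, the dynorphin precursor, was at 1304 ± 109 (SD, n = 4) in intact libraries and 1428 ± 252 (SD, n = 6) after OVX, with groups that overlapped and a log2 fold change of 0.21 (95% interval -0.11 to 0.52). For *Tacr3*, the neurokinin B receptor, the log2 fold change was 0.05 (95% interval -0.21 to 0.31). *Gnrh1*, whose neurons lie mostly in the POA, was at 91.7 ± 38.3 (SD, n = 4) and 79.6 ± 29.2 (SD, n = 6). Of the 11 tested genes of kisspeptin signaling, 2 had an unadjusted *P* under 0.05, both of them higher, against 1.57% of all genes tested. A log2 fold change above 0 was found in 9 of the 11. The median of the 11 was 0.062, against -0.0018 for all genes tested, of which 49.4% were above 0 (50.5% of protein-coding ones). The mean log2 signal of the list was 8.55 to 8.64 in intact libraries and 8.69 to 9.06 after OVX, with no overlap. This mean includes the second *Gm28040* entry, whose groups did not overlap, so it is not separate from that result. Whether the other members were apart without it is not shown by this mean.

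**Figure D1:**
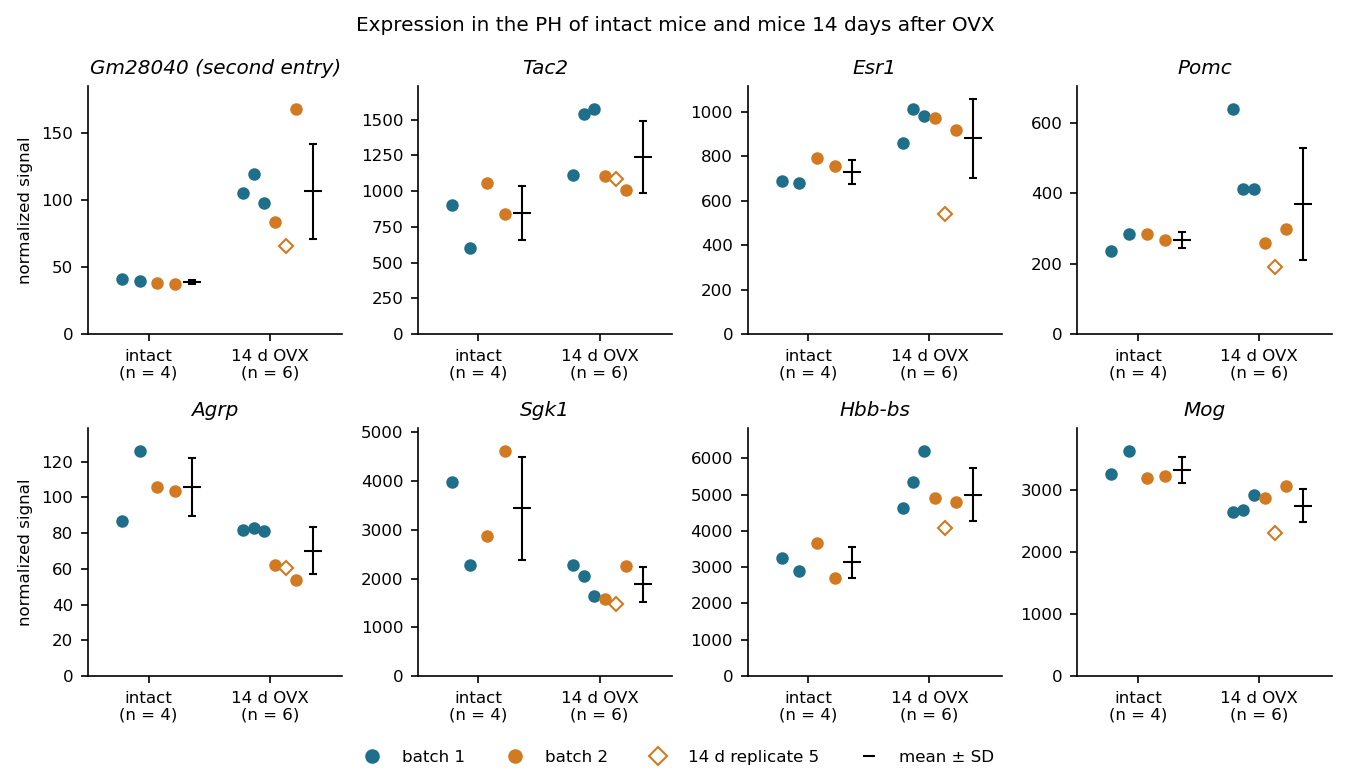
Normalized signal (y axis, linear from 0) of 8 genes in each PH library of intact mice (n = 4) and mice 14 days after OVX (n = 6), with points colored by batch, the open diamond marking replicate 5, and bars giving the mean ± SD. The second *Gm28040* entry, *Agrp*, *Sgk1*, *Hbb-bs* and *Mog* show groups that do not overlap, whereas in *Tac2*, *Esr1* and *Pomc* at least 1 library after OVX lies within or below the intact range.

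*Esr1*, which encodes ERα, was at 687, 680, 791 and 757 in intact libraries. After OVX it was at 861, 1015, 981, 971, 538 and 917. All but replicate 5 exceeded the intact range, and replicate 5 lay below it. For *Esr1* the log2 fold change was 0.39 (SE 0.12, unadjusted *P* = 0.0051, adjusted *P* = 0.9999 in limma) and 0.40 without replicate 5, but 0.25 without a covariate. Within batch 2, which holds replicate 5, the difference was 0.016, against 0.47 within batch 1. *Pgr*, the progesterone receptor and a classical target of estradiol, was at 2017 ± 44.7 (SD, n = 4) and 2000 ± 279 (SD, n = 6), with a log2 fold change of -0.09 (95% interval -0.28 to 0.093). *Cyp19a1*, the aromatase that makes estradiol, was at a mean of 56.5 and 66.8 (log2 fold change 0.35, unadjusted *P* = 0.045 in limma), and *Irs4*, an insulin receptor substrate abundant in the hypothalamus, at 3097 and 3577 (0.28, unadjusted *P* = 0.036). In all, 3 of 23 steroid receptor genes and estrogen targets had an unadjusted *P* under 0.05, all higher, against 1.57% of all genes tested. Their median log2 fold change was 0.038, with 13 of 23 above 0, a share close to that over all genes.

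Genes of feeding peptides made in the arcuate nucleus were measured in the bulk PH, and none passed the adjusted threshold. *Agrp* was at 86.6, 126, 106 and 104 in intact libraries and at 81.5, 83.0, 81.3, 61.9, 60.3 and 53.9 after OVX. Every library after OVX was below every intact one. For *Agrp* the log2 fold change was -0.57 (SE 0.19, unadjusted *P* = 0.0063, adjusted *P* = 0.9999 in limma), with -0.35 within batch 1 and -0.84 within batch 2. *Npy* was at 681, 586, 410 and 436, and at 420, 379, 499, 297, 744 and 437 after OVX, where replicate 5 was the highest of all 10. Its log2 fold change was -0.37 (SE 0.14, unadjusted *P* = 0.017 in limma), but the difference within batch 2 was 0.12. *Pomc*, the precursor of α-MSH, was at 235, 284, 283 and 268 in intact libraries and at 640, 413, 411, 259, 190 and 300 after OVX. The 3 libraries after OVX of batch 1 were the highest, and those of batch 2 were near or below the intact range, apart from replicate 6. The log2 fold change was 0.45 (95% interval -0.18 to 1.08), 0.27 without replicate 1 at 14 days. Among 28 genes of the feeding and growth hormone axis, 1 was higher at an unadjusted *P* under 0.05, the leptin receptor *Lepr* (0.35), and 2 were lower, *Agrp* and *Npy*. Of all genes tested, 1.57% were higher and 1.47% lower at this threshold. The median of the 28 was 0.093, and 19 were above 0.

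Over all tested genes, the groups did not overlap in 126 (0.573%), 61 that were higher (0.277%) and 65 that were lower (0.295%) after OVX. Among protein-coding genes these were 45 (0.275%) and 40 (0.244%). The 5 with the largest log2 fold change among the 45 were *Gm28040*, *Hbb-bs* (0.63), *Cd274* (0.52), *Ccdc42* (0.49) and *Nostrin* (0.47). Those with the smallest among the 40 included *Sgk1*, *Ppm1n* (-0.63) and *Pdzk1* (-0.59). Without replicate 5, the counts were 92 and 67, and fewer libraries then had to be apart.

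**Figure D2:**
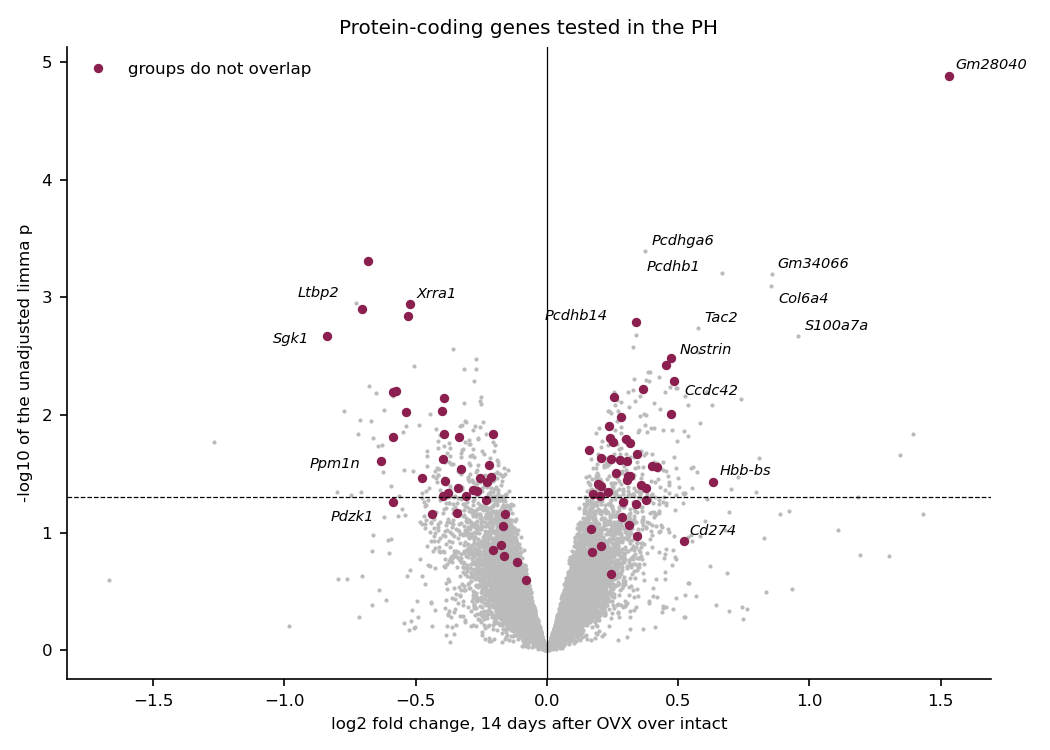
Log2 fold change 14 days after OVX over intact (x axis) and -log10 of the unadjusted limma *P* (y axis) of the 16361 protein-coding genes tested, each a grey point, with the 45 higher and 40 lower genes whose groups do not overlap as dark points and the dashed line at an unadjusted *P* of 0.05. The second *Gm28040* entry, at 1.53, stands alone at the top right.

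*Sgk1*, a kinase gene induced by glucocorticoids, had the largest decrease among these 40. It was at 3980, 2287, 2867 and 4625 in intact libraries and at 2273, 2061, 1649, 1581, 1470 and 2249 after OVX. The lowest intact value, in replicate 2, lay just above the highest after OVX. This was a log2 fold change of -0.84 (SE 0.23, unadjusted *P* = 0.0021, adjusted *P* = 0.9999 in limma), with -0.61 within batch 1 and -1.07 within batch 2. At 4 months *Sgk1* was at 2778 ± 688 (SD, n = 6). Of the 23 tested glucocorticoid-induced genes, only *Sgk1* had an unadjusted *P* under 0.05, against 1.47% of all genes that were lower. In this list, 20 of 23 had a log2 fold change below 0, with a median of -0.15. Among them were *Fkbp5* (-0.18), *Tsc22d3* (-0.15) and *Mt2* (-0.28), whereas *Zbtb16* was at 0.34. The median difference was -0.059 within batch 1 and -0.27 within batch 2, and 19 of 23 were below 0 without replicate 5.

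The immediate early gene *Egr2*, a transcription factor induced by neuronal activity, was at 75.7, 93.5, 101 and 213 in intact libraries and at 66.8, 55.7, 60.5, 72.2, 85.9 and 73.7 after OVX. All but replicate 5 were below the intact range. The log2 fold change was -0.67 (SE 0.24, unadjusted *P* = 0.011 in limma) and -0.39 without intact replicate 4, the highest. Of the 28 immediate early genes, 11 were above 0 and 17 below, and *Fos* was at 1024 ± 369 (SD, n = 4) and 1084 ± 263 (SD, n = 6). *Klf2* was the only one higher at an unadjusted *P* under 0.05 (0.33), and its difference within batch 2 was -0.15. Among 19 clock genes, 2 were lower at an unadjusted *P* under 0.05, against 1.47% of all genes tested. *Ciart*, a repressor of the clock, was at 514 to 617 in intact libraries and at 427, 483, 424, 494, 245 and 372 after OVX, all below the intact range (log2 fold change -0.39, SE 0.13, unadjusted *P* = 0.0072 in limma). *Nr1d2*, which encodes the repressor REV-ERBβ, was at 8602 ± 594 (SD, n = 4) and 8164 ± 1041 (SD, n = 6) with groups that overlapped.

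Further genes came from the 10 protein-coding ones with the smallest *P* among those lower. *Xrra1* was at 104 to 137 in intact libraries and at 72.8 to 98.4 after OVX (-0.52, unadjusted *P* = 0.0011). *Hmmr*, the hyaluronan receptor of dividing cells, was at 89.0 to 113 and at 55.1 to 80.8 (-0.53, unadjusted *P* = 0.0015). *Ltbp2*, which encodes a matrix protein, was at 59.9 to 124 and at 33.5 to 63.3 (-0.73, unadjusted *P* = 0.0011), with overlap in 1 library. *Lactb2*, *Gnl3*, *Plag1* and *Azin1* had log2 fold changes of -0.51 to -0.27, and their groups overlapped.

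Of the 10 protein-coding genes with the smallest *P* among those higher, 4 belonged to the clustered protocadherins, adhesion molecules of neurons whose many isoforms come from gene clusters on chromosome 18. *Pcdhb14* was at 527, 548, 560 and 585 in intact libraries and at 718, 761, 675, 700, 897 and 645 after OVX, all above the intact range (0.34, SE 0.09, unadjusted *P* = 0.0016, adjusted *P* = 0.9999 in limma). *Pcdhb1* was at 38.1 to 62.2 and at 51.2 to 95.9 (0.67, unadjusted *P* = 6.2e-04). *Pcdhga6* and *Pcdhga7*, whose annotated genes end at the same base (37975014, GRCm39), were higher in 5 libraries after OVX than the intact mean and lowest in replicate 5, at 1002 and 989. Their log2 fold changes were 0.38 and 0.34, but within batch 2 the differences were 0.043 and -0.061. Transcripts of this cluster share their last exons, and the values of single isoforms are uncertain for that reason. The whole family was counted after these 4 members were seen, so the count is a description that they are part of. Of 58 tested members, 9 were higher and 1, *Pcdha5*, was lower at an unadjusted *P* under 0.05, against 1.57% and 1.47% of all genes tested. A log2 fold change above 0 was found in 43 of the 58, against 49.4% of all genes, with a median of 0.065. The median difference was 0.13 within batch 1, with 45 of 58 above 0. Within batch 2 it was -0.017, with 28 of 58 above 0.

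Other genes of that group of 10 ranged from low signal to signal well above the floor. *Gm34066* was at 53.3, 25.7, 33.3 and 28.8 in intact libraries and at 59.5, 68.0, 66.2, 59.4, 51.5 and 62.5 after OVX, with 1 overlap, and at 114 ± 27.6 (SD, n = 6) at 4 months. Its log2 fold change was 0.86 (SE 0.21, unadjusted *P* = 6.3e-04 in limma). *Col6a4*, a collagen gene, was at 99.6 ± 28.0 (SD, n = 4) and 165 ± 41.7 (SD, n = 6) (0.85, unadjusted *P* = 8.1e-04). *S100a7a* was at 28.5 ± 6.92 (SD, n = 4) in intact libraries, near the floor, and at 54.8 ± 26.8 (SD, n = 6) after OVX. Its single values after OVX lay between 29.7 and 94.7. *Bag3*, a co-chaperone induced by stress, was at 517 ± 69.5 (SD, n = 4) and 618 ± 62.6 (SD, n = 6) (0.33, unadjusted *P* = 0.0027). Of the 26 heat shock and ER chaperone genes, 23 were above 0, with a median of 0.096. The median difference was 0.16 within batch 1, with 24 of 26 above 0, and 0.018 within batch 2, with 14 of 26. *Pdia4* was the only one with an unadjusted *P* under 0.05 (0.25), against 1.57% of all genes that were higher. *Nkx2-1*, a transcription factor of the developing and adult hypothalamus, was named after its values were seen. It was at 432 to 514 in intact libraries and at 552 to 616 in 5 libraries after OVX, with 1134 in replicate 5, so that the groups did not overlap (0.38, unadjusted *P* = 0.053 in limma).

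Noncoding genes were named by the smallest *P*. *Gm44911* was at 18.3 to 24.5 in intact libraries and at 46.5, 73.8, 85.5, 52.2, 20.4 and 46.9 after OVX, where replicate 5 lay within the intact range. *Vdac3-ps1*, a pseudogene, was at 20.8 to 28.3 and at 40.1 to 69.3, except for 21.5 in replicate 5. *Gm42702* was at 33.5 to 44.5 and at 44.6 to 65.4, with groups that did not overlap. Lower were *Gm5535* (137 to 171 in intact libraries and 52.1 to 125 after OVX), *C030004G16Rik* (40.8 to 61.4 and 27.6 to 40.3) and *Gm13919* (51.3 to 64.1 and 23.8 to 53.8). The groups did not overlap in the first 2 of these.

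Markers of cell types moved little on the log2 scale. In bulk tissue, fewer cells of a type and less RNA per cell cannot be told apart. All 22 microglia genes had a log2 fold change above 0, with a median of 0.12, and 21 did so without replicate 5. An unadjusted *P* under 0.05 was reached by *Itgam* (0.27), *Ctss* (0.25), *Aif1* (0.42) and *Trem2* (0.26), whereas *Tmem119* was at 0.026 and *P2ry12* at 0.079. Of all genes tested, 1.57% were higher at this threshold and 49.4% had a log2 fold change above 0. *Aif1*, which encodes IBA1, was at 131, 156, 128 and 140 in intact libraries and at 227, 128, 163, 196, 241 and 195 after OVX, with replicate 2 at 14 days the lowest of all 10. The mean log2 signal of the 22 genes was 9.22 to 9.36 in intact libraries and 9.31 to 9.51 after OVX, and the median difference was 0.04 within batch 1 and 0.21 within batch 2. The astrocyte genes had a median of 0.015, with *Gfap* at 7502 ± 1600 (SD, n = 4) and 8612 ± 2040 (SD, n = 6), and *Vim*, an intermediate filament of reactive astrocytes and tanycytes, was at 1455 to 1642 in intact libraries and above 1642 in all libraries after OVX but replicate 5 (0.24, unadjusted *P* = 0.053 in limma). *Tspo* was at 105 ± 8.56 (SD, n = 4) and 102 ± 26.0 (SD, n = 6).

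Oligodendrocyte genes were lower. Of 12 members, 11 had a log2 fold change below 0, with a median of -0.11. *Mog*, a protein of the outer myelin surface, was at 3252, 3635, 3195 and 3224 in intact libraries and at 2638, 2674, 2916, 2872, 2312 and 3056 after OVX, all below the intact range (-0.23, SE 0.10, unadjusted *P* = 0.037, adjusted *P* = 0.9999 in limma). *Cldn11*, a tight junction protein of myelin, was at 6694 to 8614 and at 5857 to 7196 (-0.27, unadjusted *P* = 0.0041). *Mbp*, which encodes myelin basic protein, was at -0.034. The mean log2 signal of the list was 13.11 to 13.14 in intact libraries and 12.92 to 13.08 after OVX, with every library after OVX below every intact one. As this mean includes *Mog*, whose groups did not overlap, it is not separate from that result. The median difference was -0.18 within batch 1 and -0.022 within batch 2. The precursors had a median of 0.054, with 8 of 12 above 0.

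**Figure D3:**
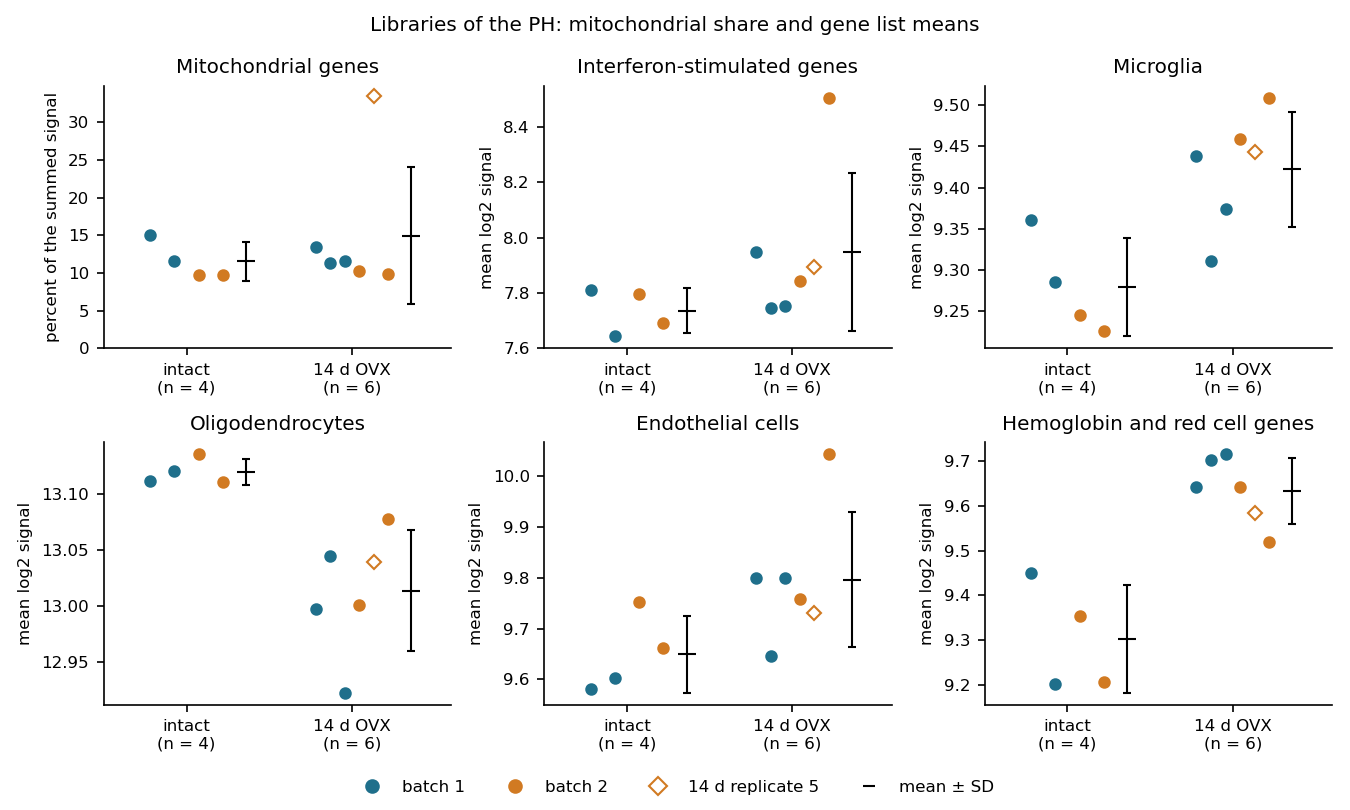
Percent of the summed signal from mitochondrial genes and the mean log2 signal of 5 gene lists (y axes) in each PH library of intact mice (n = 4) and mice 14 days after OVX (n = 6), with points colored by batch, the open diamond marking replicate 5, and bars giving the mean ± SD. Replicate 5 is high in mitochondrial signal at 33.4%, and replicate 6 is high in interferon-stimulated genes at 8.51. The groups are apart in the oligodendrocyte and red cell lists, which include *Mog* and *Hbb-bs*, genes whose own groups do not overlap.

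Genes of blood and vessels were higher on average. *Hbb-bs*, an adult β-globin gene, was at 3261, 2888, 3668 and 2714 in intact libraries and at 4645, 5341, 6217, 4908, 4092 and 4809 after OVX, all above the intact range (0.63, SE 0.27, unadjusted *P* = 0.037, adjusted *P* = 0.9999 in limma). *Hbb-bt*, a near copy whose reads can be split with it, was at 383 to 511 and at 404 to 885 (0.73, unadjusted *P* = 0.033), and *Alas2*, which starts heme synthesis in red cells, at 128 to 188 and at 135 to 264 (0.51, unadjusted *P* = 0.041). *Hba-a1* and *Hba-a2*, which encode α-globin, had log2 fold changes of 0.54 and 0.60, but replicate 5 lay below every intact library in both, at 683 against 714 to 1227 and at 1651 against 2353 to 3087. In the limma fit without the libraries at 4 months, the adjusted *P* of *Hbb-bt* was 0.024 with SV1 and 0.99 without a covariate. The median of 12 red cell genes was 0.29, with 8 above 0, and their mean log2 signal was 9.20 to 9.45 in intact libraries and 9.52 to 9.71 after OVX. As this mean includes *Hbb-bs*, whose groups did not overlap, it is not separate from that result. At 4 months, *Hbb-bs* was at 8630 ± 4254 (SD, n = 6). Of 18 endothelial genes, 16 were above 0, with a median of 0.17, 0.12 without replicate 6 at 14 days. *Cdh5*, the cadherin of endothelial junctions, was at 453 to 601 and at 585 to 795 (0.30, unadjusted *P* = 0.025), and *Cldn5*, the main claudin of the blood-brain barrier, at 438 to 729 and at 318 to 1186 (0.38, unadjusted *P* = 0.010), the lowest being replicate 5. *Nostrin*, which traffics endothelial nitric oxide synthase, was at 171 to 206 and at 244 to 314 with no overlap (0.47, SE 0.14, unadjusted *P* = 0.0033 in limma). Whether the tissue was cleared of blood before dissection is not given in the sources used here, and the part of the blood in these results was not tested.

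The study also followed inflammation after OVX. Of 59 interferon-stimulated genes, 54 had a log2 fold change above 0, against 49.4% of all genes tested, with a median of 0.21. In 3 the unadjusted *P* was under 0.05, all higher, *Lgals3bp* (0.38), *Psmb9* (0.52) and *Zc3hav1* (0.23), against 1.57% of all genes tested. Replicate 6 at 14 days stood apart from the other libraries. The mean log2 signal of the list was 8.51 in it, against 7.74 to 7.95 in the 5 others and 7.64 to 7.81 in intact libraries. Without replicate 6 the median was 0.09 and 47 genes were above 0. The 21 MHC genes had a median of 0.27, which was 0.046 without replicate 6. *B2m*, the light chain of MHC class I, was at 2398 to 4394 and at 3060 to 8678, the highest being replicate 5, and *Cd274*, which encodes PD-L1, was at 275 to 336 and at 357 to 664 with no overlap (0.52, unadjusted *P* = 0.12 in limma, 0.35 without replicate 6).

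The other inflammatory lists were nearer to 0. The median was 0.11 for 27 complement genes, 0.089 for 42 targets of TNF and NF-κB, 0.028 for 30 genes of IL6 and STAT3 signaling and 0.024 for 21 genes of prostaglandins and fever. *Traf1*, an NF-κB target, was at 136 to 195 in intact libraries and at 199, 209, 385, 259, 99.3 and 336 after OVX, where replicate 5 was the lowest of all (0.63, SE 0.21, unadjusted *P* = 0.0082 in limma, 0.70 without replicate 5). *Stat3* was at 2131 to 2421 and at 2386 to 3201 (0.23, unadjusted *P* = 0.023). *Ptgs2*, the inducible cyclooxygenase, was at 157, 72.0, 67.5 and 68.4 in intact libraries and at 149, 81.3, 96.5, 70.2, 272 and 176 after OVX (0.33, 95% interval -0.60 to 1.26). The difference was -0.014 within batch 1 and 1.14 within batch 2.

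**Figure D4:**
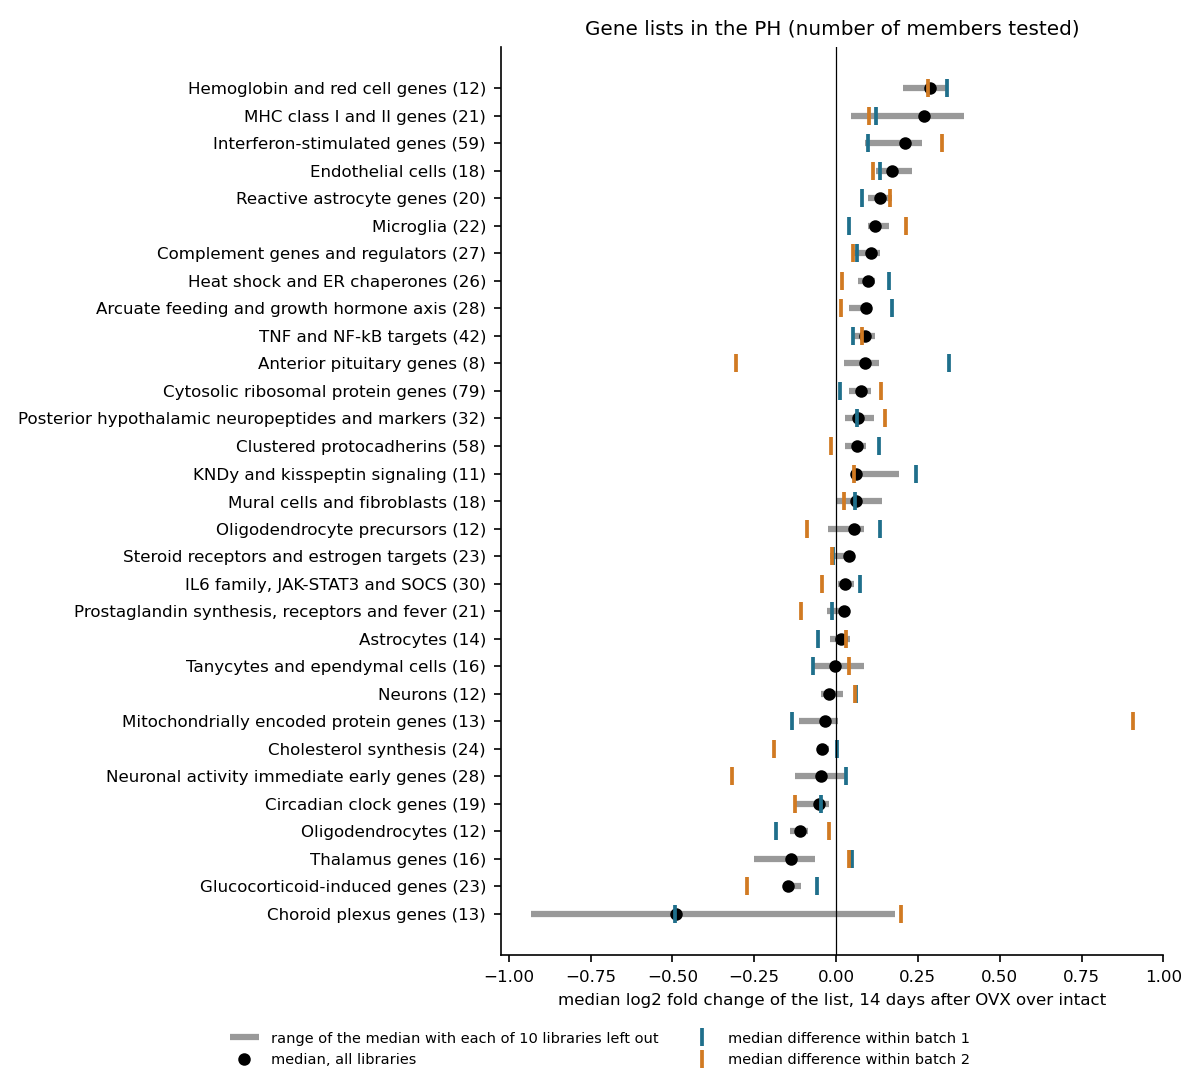
Median log2 fold change 14 days after OVX over intact (x axis) of the 31 gene lists (y axis, members tested in parentheses), with black points for all libraries, grey bars for the range when each of the 10 libraries is left out in turn, and colored ticks for the median difference within each batch. The red cell list is highest at 0.29 and the choroid plexus list lowest at -0.49 with the widest range, -0.93 to 0.18.

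Among the remaining lists, 69 of 79 cytosolic ribosomal protein genes were above 0, with a median of 0.078, and none had an unadjusted *P* under 0.05. Within batch 1, 42 of 79 were above 0, with a median difference of 0.011, and within batch 2, 55 of 79, with 0.138. Without replicate 6 at 14 days, 59 of 79 were above 0. Cholesterol synthesis genes had a median of -0.043, with *Hsd17b7* lower at an unadjusted *P* of 0.016 in limma (-0.26). The 13 mitochondrially encoded protein genes had a median of -0.033 after SV1, but of 0.40 without a covariate, and replicate 5 was the highest of these libraries in them. Lists of posterior hypothalamic peptides (0.068), reactive astrocyte genes (0.13), mural cells (0.06), tanycytes and ependymal cells (-0.003), neurons (-0.021), thalamus (-0.14) and pituitary (0.088) had 0 to 2 members with an unadjusted *P* under 0.05. Measured median differences within batches 1 and 2 were above 0 for neurons (0.06 and 0.058) and thalamus (0.049 and 0.038), unlike their fitted medians. They changed sign between batches for tanycytes and ependymal cells (-0.069 and 0.039) and pituitary (0.345 and -0.305). The rest of these lists were above 0 in both.

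**Figure D5:**
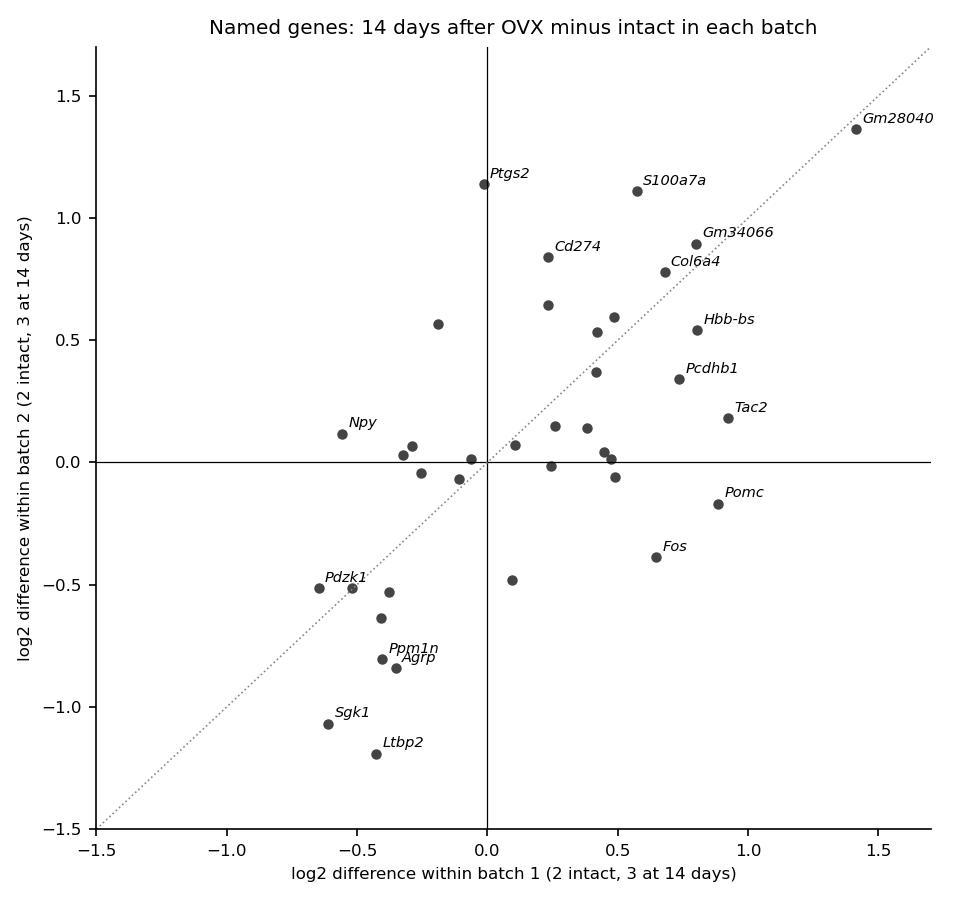
Difference in mean log2 signal between 14 days after OVX and intact within batch 1 (x axis) and within batch 2 (y axis), each with 2 intact and 3 OVX libraries, for 38 named genes, with the dotted line marking equal differences. The second *Gm28040* entry lies at 1.42 and 1.36, and 27 of the 38 genes have the same sign in both batches.

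Within batches, 27 of the 38 genes shown of those named by *P*, by lack of overlap or from the study's text had the same sign in both. Since most of these genes were named for their difference over both batches, this count is a description. Genes with opposite signs included *Npy*, *Pomc*, *Fos*, *Gfap*, *Ptgs2* and *Gnrh1*.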

How the data were processed

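Bulk RNA-seq libraries of the PH of intact mice (n = 4) and mice 14 days after OVX (n = 6) were grouped by their labels. Per the study's methods, the authors pseudoaligned the reads with kallisto (mm39) and used tximport and DESeq2. The authors deposited 1 table of a normalized signal on a linear scale, not counts, and the step that made it is not stated. It gives no depth, so no interval for counting error can be had. Its 1259 unnamed entries were left out.

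Log2 values without a pseudocount were fitted with limma (version 3.58.1, R 4.3.3; trend and robust variance) on the 3 PH groups and SV1, estimated with 5 rounds of the iteratively reweighted surrogate variable method written anew in base R. The difference between regions was tested as an interaction in all 33 libraries, with SV1 estimated over them. Adjusted *P* values are Benjamini-Hochberg values over every gene in a fit. The code was tested on simulated data. Gene types and positions came from GENCODE M39, and 972 of 41565 named entries have no symbol there. The coding sequences came from GRCm39, and the *Kiss1* start from RefSeq (GRCm38.p6). Other tools were statmod 1.5.0 and Python 3.11.15 with numpy 2.4.6, pandas 2.3.3 and matplotlib 3.10.9.

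The members and the lists were chosen with earlier results of these data known. The 98 named genes were those called (none), the 10 protein-coding genes with the smallest *P* in each direction, the 5 with the largest and the 5 with the smallest log2 fold change among those whose groups did not overlap, genes of the study's text on mice with *Esr1*, *Pgr*, *Gnrh1*, *Pomc*, *Agrp* and *Npy*, the 2 members of each list with the smallest *P*, and 3 noncoding genes in each direction. Other genes were named after their values were seen. Alternatives changed the covariate, the libraries in the fit, the floor, the filter, the variance model and the threshold, or added a replicate block. Results of a few of these genes are not reported here.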

Additional observations from a re-analysis of the deposited data

Results flagged for a closer look

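In 262 groups of libraries (each named gene, list mean or library measure in each group), 25 held a library whose distance to the others passed Dixon's 95% value, which chance reaches in about 1 of 20. Of the 25, 12 were replicate 5 at 14 days. It was low in *Pcdhga6* (1002), *Pcdhga7* (989), *Esr1* (538), *Gad1* (9741), *Gpr17* (1287), *Col23a1* (353), the IL6 list (mean log2 signal 9.29) and the cholesterol list (10.9). It was high in *mt-Nd1* (2002477), the mitochondrial list (20.3), the percent of mitochondrial signal (33.4) and the sum of all values (73.0, in units of 1e6). This library also held *Ulk4* at 12666, against 275 to 620 in the 15 other PH libraries, and the pseudogene *Rpl36a-ps3* at 1070, against at most 21.8. In all, 317 named entries, tested or not, were over 2 times the highest other PH library in it, and 32 over 4 times.

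Replicate 6 at 14 days stood apart in the mean of the interferon-stimulated genes (8.51, against 7.74 to 7.95). Replicate 4 at 14 days was low in *Hmmr* (55.1) and high in the first *Gm28040* entry (49.4), and replicate 3 was low in *Steap4* (31.3). Among intact libraries, replicate 1 was high in *Lactb2* (1916), *Ptgs2* (157) and the sum of all values (54.5 in the same units) and low in *Cldn5* (438). Replicate 2 was high in *Mog* (3635). Replicate 3 was high in *Kiss1* (30.9), *Vdac3-ps1* (28.3) and the heat shock list (11.7), and replicate 4 in *Six3* (2276).

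The second *Gm28040* entry differed between the regions, with a change in the PH that exceeded that in the POA by 2.75 on the log2 scale (adjusted *P* = 4e-06 in limma).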

How the results depend on the processing

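With each of the 10 libraries left out in turn, 0 to 0 genes were called, 227 to 304 were higher and 173 to 260 lower at an unadjusted *P* under 0.05, and the groups were apart in 68 to 217 higher and 55 to 208 lower genes, since fewer libraries then had to be apart. For the same reason these last counts were 1660 and 1278 within batch 1, 1477 and 1745 within batch 2, and 92 and 67 without replicate 5 at 14 days (with batch in place of SV1, added after the data were seen). Counting noncoding genes too, 65 were apart and lower and 323 were lower at an unadjusted *P* under 0.05. The number higher at an unadjusted *P* under 0.05 was 164 without a covariate, 165 with only the 2 groups and no covariate, and 125 in batch 2 alone. The number lower was 334 without a filter on low values. With only the 2 groups and SV1, 2 protein-coding genes were called, *Gm28040* and *Hbb-bt*. Apart from the replicate block, the other alternatives (no covariate with all 3 groups or with only the 2, 1 batch alone, no filter on low values, SV1 and batch, batch in place of SV1, a filter at 4 times the floor, the floor added or 0.5 of it taken off, no trend, an adjusted *P* under 0.1, a fold change of at least 1.5) called 0. The cause of these differences was not tested.

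Libraries of the same number in both groups were not treated as pairs, since the study's methods describe the intact females as euthanized before any OVX. Their deviations correlated at 0.282, 0.0684, -0.0453 and 0.391, and 1 of 4 intact libraries correlated best with its own number. These few correlations cannot by themselves decide on pairing. With the replicate number as a block, 1 gene was called (*Gm28040*, log2 fold change 1.49, adjusted *P* = 0.00978 in limma), 309 were lower at an unadjusted *P* under 0.05, and *Gnrh1* was at -0.0064.

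Of 96 named genes tested, 67 kept their sign in every alternative that gave them a value and 29 did not. The filter at 4 times the floor gave a value for 84 of the 96. With batch in place of SV1, with no covariate and with only the 2 groups and no covariate, the reversed values were -0.088 for *Tspo*, -0.19 for *Gnrh1*, -0.10 for *Slc32a1*, -0.011 for *Col23a1*, 0.27 for *mt-Co2* and 0.32 for *mt-Nd1*. In batch 1 alone they were -0.11 for *Tspo*, -0.014 for *Ptgs2*, -0.19 for *Gfap* and -0.025 for *S1pr1*. In batch 2 alone they were -0.061 for *Pcdhga7*, 0.065 for *Lactb2*, 0.032 for *Azin1*, -0.016 for *Pdyn*, -0.069 for *Tspo*, -0.39 for *Fos*, 0.015 for *Pgr*, -0.48 for *Gnrh1*, -0.17 for *Pomc*, 0.12 for *Npy*, -0.15 for *Klf2*, -0.096 for *H2-D1*, -0.039 for *Csmd2*, -0.59 for *Gh*, -0.32 for *Chga*, -0.028 for *Six3*, 0.093 for *Calml4*, -0.49 for *Slc32a1*, -0.37 for *Gad1*, -0.26 for *Gpr17*, -0.11 for *Cspg4*, -0.22 for *Col23a1*, 1.09 for *mt-Co2*, 0.91 for *mt-Nd1* and -0.12 for *Rps29*. With 1 library left out, *Tacr3* ranged from -0.023 to 0.13, *Fos* from -0.094 to 0.31, *Gnrh1* from -0.11 to 0.21 and *Chga* from -0.033 to 0.15.

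The median SE of a protein-coding gene was 0.119 on the log2 scale, so small changes could not be detected with 4 and 6 libraries. Read depth is unknown, and low genes near the floor have compressed fold changes.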
